A study of Mus musculus with 10 samples.

Results

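The genes described here encode the subunits of the mitochondrial respiratory chain and of ATP synthase that are carried in the nucleus, together with the complex I assembly factors whose symbols share the Nduf prefix. Members were taken by symbol: every gene on the array whose single symbol starts with Nduf, Uqcr, Atp5, Cox4, Cox5, Cox6, Cox7 or Cox8, or is Sdha, Sdhb, Sdhc, Sdhd or Cyc1. The rule found 91 of the 18193 genes that had a probe set with 1 symbol, and used no measured value. Of these, 89 were above the 40th percentile of log2 signal on at least 2 arrays and were tested. The 2 that were not are Cox7b2 and Ndufa4l2, isoforms of a complex IV subunit and of Ndufa4. The 89 comprised 35 complex I subunits, 8 complex I assembly factors, 4 complex II, 9 complex III and 10 complex IV subunits, 17 ATP synthase subunits, and 6 complex IV isoforms known from particular tissues such as muscle, lung and testis.

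Complex I takes electrons from NADH and complex II takes them from succinate, and both pass them to ubiquinone. Complex III hands them on to cytochrome c and complex IV to oxygen. Complexes I, III and IV pump protons across the inner mitochondrial membrane as they do so, and ATP synthase lets the protons flow back through a rotating ring of c subunits to make ATP. A few core subunits of complexes I, III and IV and of ATP synthase are made from mitochondrial DNA, and the nuclear genome supplies the rest, so the complexes are assembled from the products of both genomes.

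Expression was measured on 10 Affymetrix-type arrays of acute promyelocytic leukaemia (APL) cells, a myeloid leukaemia in which RARα, a retinoic acid receptor, is fused to PML and cells are held at the promyelocyte stage. The cells came from PML-RARα transgenic mice of the FVB N/J strain, aged 8 to 10 weeks, carried GFP, were expanded by syngeneic transplantation and were taken from bone marrow, features shared by all 5 groups. The groups were the untreated subsets UNSC, UNPD and UNTD, and the subsets RAPD and RATD from marrow given all-trans retinoic acid (ATRA), an RARα ligand used to differentiate APL cells, with 2 arrays each. The ATRA dose was 10 mg/kg, given for 5 days in the treatment protocol and for 3 to 5 days in the source names. The labels do not spell out SC, PD and TD, or the promoter of the transgene. They call the replicates biological without saying what separates them, so p-values measure the spread between these samples. There was no ATRA-treated SC group.

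A value below is the log2 MAS5 signal of the probe set with the highest mean for the gene, a difference is in log2 units with the standard error (SE) of the limma fit, and a gene is called at an adjusted p under 0.05 over all 14521 genes tested. Signals of different probe sets cannot be set against each other, so every comparison is between arrays within a gene. Precision is limited by the number of arrays. The 75th percentile of log2 signal was 8.28 and 8.35 on the UNPD arrays and 8.41 on RAPD replicate 2, against 8.60 to 8.78 on the other 7. All 7 granulocyte precursor markers, among them Mpo and Elane, were above the 40th percentile on every array, with a mean log2 signal from 12.59 to 13.76. The means of 6 late granulocyte markers were 9.53 and 9.58 in UNSC, 11.41 and 11.04 in UNPD, 11.68 and 11.14 in UNTD, and 13.12 to 13.66 with ATRA. Those of 10 monocyte and macrophage markers were 6.14 and 6.25 in UNSC, 7.24 and 6.50 in UNPD and 8.95 and 9.65 in UNTD, with 6.98 and 6.99 in RAPD and 9.72 and 8.38 in RATD. Of 12 erythroid markers 6 were measured, with means of 4.25 and 4.49 in UNSC, 5.93 and 5.89 in UNPD, 5.09 and 5.19 in UNTD, 5.95 and 6.10 in RAPD and 4.97 and 5.51 in RATD. The means ran from 3.21 to 5.47 for 3 B cell markers, from 4.69 to 6.84 for 3 T cell markers and from 5.66 to 6.54 for 4 megakaryocyte markers. Above the 40th percentile were 2 of 6 erythroid markers on both UNSC arrays, 3 to 5 on the UNPD and UNTD arrays and 3 to 6 with ATRA. The B cell markers above it numbered 0 on UNTD replicate 2, RAPD replicate 1 and RATD replicate 1 and 1 to 3 on the others, while 2 or 3 T cell and 3 or 4 megakaryocyte markers were above it on every array. The part of these markers in the results below was not tested. In bulk samples, fewer cells of a type and less RNA per cell cannot be told apart.

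The promoters of 73 of the 89 genes were found in the RefSeq promoter table (GRCm38.p6), and are introduced first because many of the genes moved together. Factors known to act on such promoters are NRF1, the ETS factor GABP and YY1. In windows from 250 bases before to 50 after the start, read on both strands, the NRF1 motif (GCGC, any base, then TGCGC) was in 23.3% of the 73 genes, against 10.2% of all tested genes with a promoter and 4.6% of all promoters in the table. The ETS motif CCGGAAG was in 26% against 17.7% and 8.86%, and the YY1 motif AAGATGGC in 13.7% against 4.66% and 2.75%. At least 1 of these 3 motifs was in 40 of the 73 genes, and 6 held more than 1 kind. CCAAT was in 42.5% against 42.2%, the SP1 motif GGGCGG in 46.6% against 62.6%, TATAAA in 9.59% against 9.92% and the E box CACGTG in 8.22% against 10.9%. The estrogen-related receptor motif TCAAGGTCA was in 2 of the 73 (2.74% against 0.405%), and a direct repeat of AGGTCA with 5 bases between, a form that retinoic acid receptors bind, was in 0%, against 0.00862%. A match describes the letters in the window and is not a measured binding site.

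Below are the 250 bases before the start of 4 genes, printed 5′ to 3′ on the gene's own strand, the minus strand for each, with capitals on the NRF1, ETS, YY1 and CCAAT motifs. They are shown because Sdhd was called higher in UNPD while Sdha, of the same complex, was not called, Atp5md had the largest rise among the ATP synthase genes, and Cox7c the largest fall of all members. The windows are chr13:74350241-74350490 for Sdha, chr9:50603850-50604099 for Sdhd, chr19:47090648-47090897 for Atp5md and chr13:86046796-86047045 for Cox7c, all in GRCm38.p6.
Sdha: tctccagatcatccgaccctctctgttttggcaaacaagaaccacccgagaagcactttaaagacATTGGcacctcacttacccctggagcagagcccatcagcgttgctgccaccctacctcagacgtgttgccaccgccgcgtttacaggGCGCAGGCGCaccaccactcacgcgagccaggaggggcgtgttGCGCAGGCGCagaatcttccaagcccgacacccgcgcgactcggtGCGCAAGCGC
Sdhd: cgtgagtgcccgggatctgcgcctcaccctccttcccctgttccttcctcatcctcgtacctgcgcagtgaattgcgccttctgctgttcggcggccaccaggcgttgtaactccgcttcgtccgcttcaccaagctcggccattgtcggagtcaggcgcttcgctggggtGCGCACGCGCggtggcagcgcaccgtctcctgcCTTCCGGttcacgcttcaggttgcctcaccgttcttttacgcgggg
Atp5md: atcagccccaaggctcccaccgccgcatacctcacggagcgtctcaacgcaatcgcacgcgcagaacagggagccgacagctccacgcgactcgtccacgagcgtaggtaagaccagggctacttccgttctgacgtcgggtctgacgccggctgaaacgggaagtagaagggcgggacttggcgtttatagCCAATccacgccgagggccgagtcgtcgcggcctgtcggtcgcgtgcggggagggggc
Cox7c: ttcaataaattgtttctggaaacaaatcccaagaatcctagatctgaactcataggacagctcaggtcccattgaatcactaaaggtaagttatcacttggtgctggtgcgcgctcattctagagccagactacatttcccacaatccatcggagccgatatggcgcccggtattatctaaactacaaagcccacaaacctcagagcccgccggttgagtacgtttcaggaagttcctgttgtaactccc
The Sdha window has 3 NRF1 matches and a CCAAT box on the opposite strand, and the Sdhd window 1 NRF1 and 1 ETS match. In the Atp5md window only a CCAAT box is marked, and in the Cox7c window none of these motifs was found. The longer Atp5md window used for the percentages also holds 1 ETS match, which reaches into the bases after the start that are not printed.

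UNPD was the group with the highest mean for 77 of the 89 genes (86.5%), against 32.9% of all genes tested, and UNTD the group with the lowest mean for 56, against 23.1% of all genes. By single array, UNPD replicate 1 was highest for 66 genes, and the lowest array was UNTD replicate 2 for 43 genes, RATD replicate 2 for 20 and UNTD replicate 1 for 10. After subtracting each gene's mean over the 10 arrays, the median of the 89 genes was 0.54 and 0.42 on the UNPD arrays, -0.15 and -0.09 on the UNSC arrays and -0.19 and -0.39 on the UNTD arrays. With ATRA it was 0.00 and 0.26 on the RAPD arrays and -0.12 and -0.22 on the RATD arrays. Both UNPD arrays lay above all others, and the RAPD arrays came next, while UNSC, UNTD and RATD overlapped. The spread within a group also ran through the whole set: UNPD replicate 1 was above replicate 2 for 78 of the 89 genes, and RAPD replicate 2 above replicate 1 for 79.

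**Figure D1:**
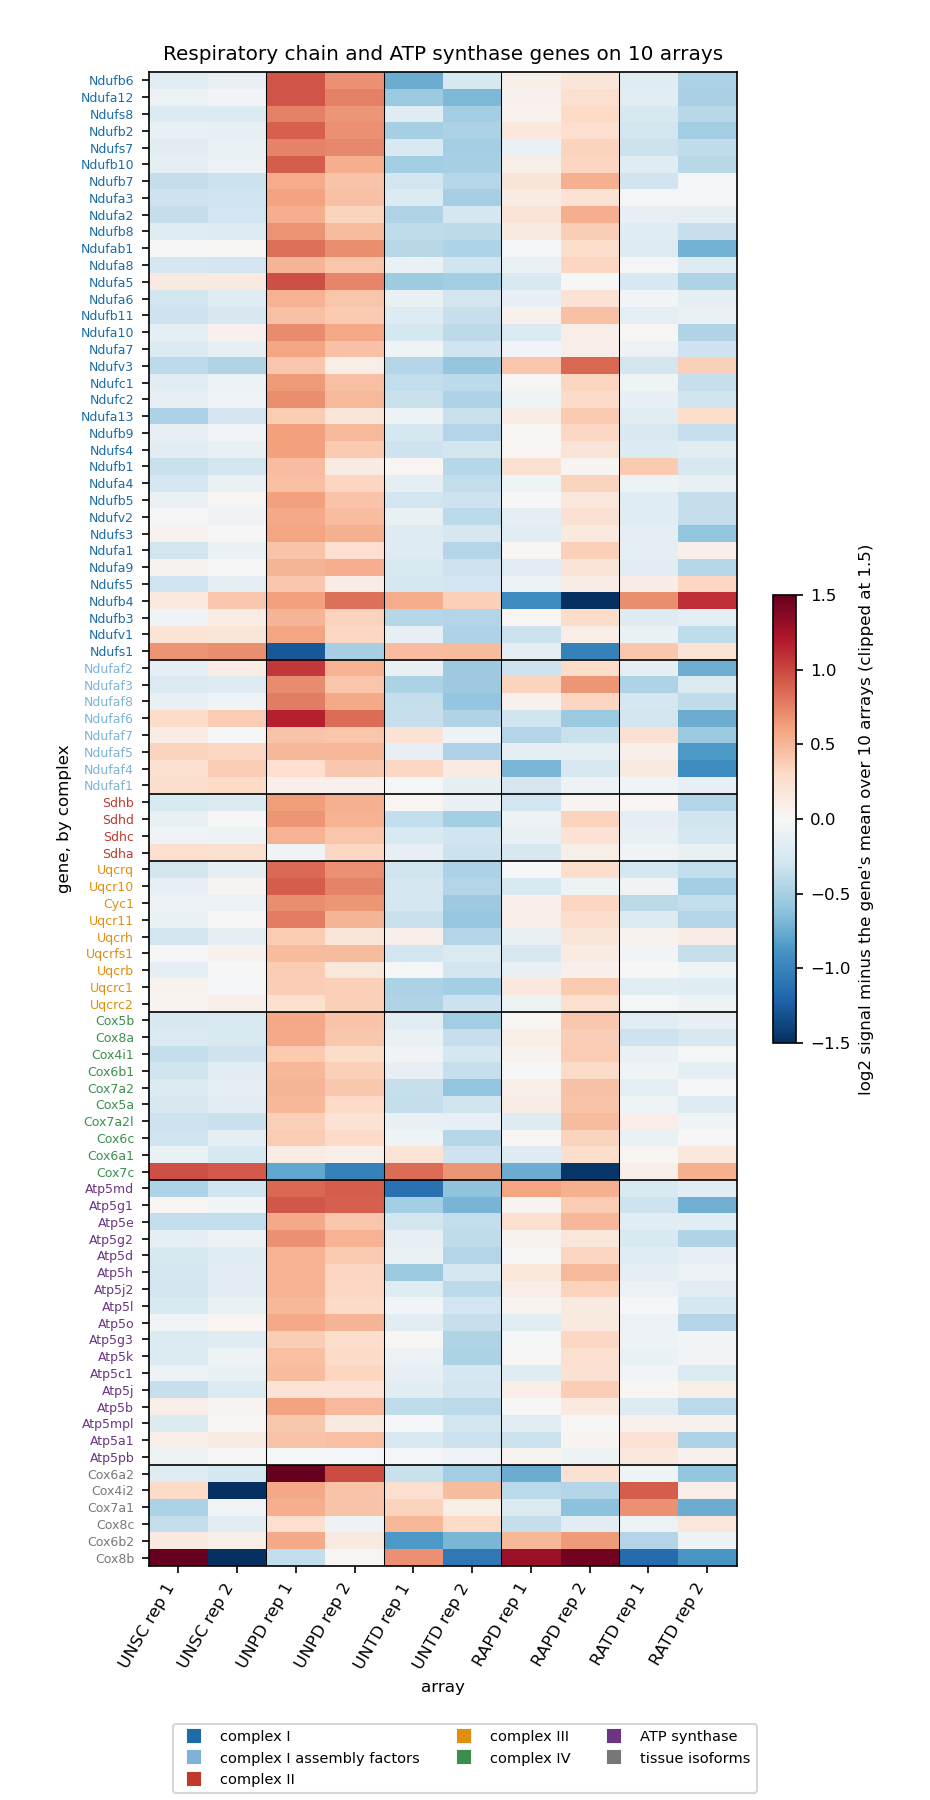
Log2 signal of the 89 genes on 10 arrays, each gene minus its mean over the arrays (colour, clipped at 1.5), with genes in rows ordered by complex and arrays in columns. UNPD replicate 1 has the highest median in complexes I, II and IV and in ATP synthase, the UNPD medians over all 89 genes are 0.54 and 0.42, and Ndufs1 and Cox7c show the opposite colours.

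The comparison of UNPD with UNSC asks how the PD subset differs from the SC subset in untreated leukaemia. Of the 89 genes, 60 were called higher in UNPD (background 10.7% of all genes tested) and 2 lower (background 15.3%), with a median difference of 0.64 against 0.20 for all genes. By complex, 29 of 35 complex I subunits rose and 1 fell, as did 8 and 1 of 10 for complex IV. Rises were called for 2 of 8 complex I assembly factors, 3 of 4 complex II, 4 of 9 complex III and 13 of 17 ATP synthase subunits, with no fall. The medians were 0.68 for complex I, 0.52 for its assembly factors, 0.59 for complex II, 0.49 for complex III, 0.62 for complex IV and 0.54 for ATP synthase.

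Within complex I, 25 of the 29 accessory subunits rose and none fell. Ndufb6, an accessory subunit of the membrane arm, read 12.60 and 12.65 in UNSC, 13.70 and 13.45 in UNPD, 12.02 and 12.52 in UNTD, 12.85 and 12.94 in RAPD and 12.58 and 12.28 in RATD. Its UNPD arrays lay above all the others, 1.93-fold over UNSC (0.95 ± 0.19, adjusted p = 0.00437). Of the 6 core subunits, which carry the electron path, 4 rose and 1 fell. Ndufs8, which binds iron-sulphur clusters, rose by 0.91 ± 0.16 (adjusted p = 0.00245) and Ndufs7, which holds the last cluster before ubiquinone, by 0.86 ± 0.18 (adjusted p = 0.00454). Ndufv1, the flavoprotein that takes the electrons of NADH, differed by 0.25 ± 0.20 (adjusted p = 0.383).

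Ndufs1, the largest core subunit, went the other way. It read 11.12 and 11.15 in UNSC, 9.18 and 9.95 in UNPD, 10.91 and 10.92 in UNTD, 10.32 and 9.44 in RAPD and 10.85 and 10.66 in RATD. The UNPD and RAPD arrays were the 4 lowest and overlapped each other. Ndufs1 fell 2.98-fold from UNSC to UNPD (-1.57 ± 0.29, adjusted p = 0.00287). Ndufab1, the mitochondrial acyl carrier protein that also sits in complex I, rose by 0.74 ± 0.18 (adjusted p = 0.0122) on its brightest probe set, but the mean over its probe sets gave -0.33. That mean took in dim probe sets, 1 of which read 6.05 and 5.77 in UNSC and 4.97 and 2.89 in UNPD. The second brightest read 9.08 and 9.14 in UNSC and 9.52 and 9.23 in UNPD. Ndufa4, first assigned to complex I and later to complex IV, rose by 0.56 ± 0.17 (adjusted p = 0.0292).

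In complex II, 3 of 4 subunits rose, and the catalytic flavoprotein Sdha was not called. Sdha read 11.82 and 11.82 in UNSC and 11.53 and 11.89 in UNPD, so that the groups overlapped, and its difference was -0.11 ± 0.18 (adjusted p = 0.704). Sdhb, the iron-sulphur subunit, read 12.48 and 12.50 in UNSC and 13.33 and 13.24 in UNPD, with no overlap, and rose 1.73-fold (0.79 ± 0.18, adjusted p = 0.00871). The membrane anchors Sdhc and Sdhd, whose site reduces ubiquinone, rose by 0.53 ± 0.17 (adjusted p = 0.0351) and 0.65 ± 0.17 (adjusted p = 0.0166). A second probe set of Sdha above the 40th percentile on every array gave -0.16. Whether Sdha differed from its partners in this change was not tested.

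In complex III, 3 of 5 small subunits and 1 of 4 large or catalytic ones rose. Uqcrq, a small subunit near the ubiquinone sites, read 12.80 and 12.94 in UNSC, 13.92 and 13.76 in UNPD, 12.77 and 12.60 in UNTD, 13.07 and 13.34 in RAPD and 12.81 and 12.70 in RATD. UNPD lay above all other arrays, and the rise from UNSC was 1.96-fold (0.97 ± 0.16, adjusted p = 0.00194), or 0.52 on the mean of its probe sets (adjusted p = 0.282). Uqcr10 and Uqcr11, also small subunits, rose by 0.87 ± 0.18 (adjusted p = 0.00527) and 0.68 ± 0.17 (adjusted p = 0.0107). Uqcr10 too was not called on the mean of its probe sets (0.18, adjusted p = 0.677). The probe sets other than the one used were dim, reading at most 7.28 for Uqcrq and 8.64 for Uqcr10 on any array. Cyc1, cytochrome c1, which passes electrons to cytochrome c, rose by 0.76 ± 0.16 (adjusted p = 0.00452). The large core protein Uqcrc1 and the Rieske iron-sulphur protein Uqcrfs1 had differences of 0.35 ± 0.14 (adjusted p = 0.097) and 0.43 ± 0.17 (adjusted p = 0.0843).

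In complex IV, 8 subunits rose by similar amounts. Cox5b, which surrounds the catalytic core, had the largest difference of these, 0.73 ± 0.17 (1.66-fold, adjusted p = 0.00973). It read 13.93 and 13.94 in UNSC and 14.75 and 14.59 in UNPD, with no overlap. Cox4i1, the regulatory subunit of most tissues, and Cox5a, its partner, rose by 0.67 ± 0.16 (adjusted p = 0.00876) and 0.60 ± 0.16 (adjusted p = 0.0152). Cox7a2 rose by 0.63 ± 0.16 (adjusted p = 0.0142), and Cox7a2l, its relative that links complexes III and IV in supercomplexes, by 0.60 ± 0.20 (adjusted p = 0.0425). Cox6a1 gave 0.25 ± 0.20 (adjusted p = 0.384) on the probe set used and 0.75 on its other one, so its probe sets disagreed in size.

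Cox7c, a small membrane subunit of complex IV, fell. It read 9.15 and 9.10 in UNSC, 7.40 and 7.16 in UNPD, 9.02 and 8.84 in UNTD, 7.43 and 6.72 in RAPD and 8.25 and 8.71 in RATD. The 4 PD arrays, treated and untreated, lay below the other 6. Cox7c was 3.6-fold lower in UNPD than in UNSC (-1.85 ± 0.29, adjusted p = 0.00172). Both of its probe sets moved the same way, and the dimmer gave -2.68. The probe set used was itself dim for a member, with a mean log2 signal of 8.18 against a median of 8.48 for all genes. The fall of Cox7c rests on these 2 probe sets, and how well they read its transcript was not tested.

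In ATP synthase, 4 of 5 subunits of the F1 head rose, 2 of 3 genes for the c ring, 3 of 4 for the peripheral stalk and 4 of 5 for membrane accessory subunits. Atp5md, a small membrane subunit, read 11.48 and 11.64 in UNSC, 12.80 and 12.85 in UNPD, 10.82 and 11.34 in UNTD, 12.53 and 12.48 in RAPD and 11.71 and 11.79 in RATD. Both PD groups lay above the rest, and the rise from UNSC to UNPD was 2.4-fold (1.26 ± 0.18, adjusted p = 0.00144). Atp5g1, Atp5g2 and Atp5g3 encode the same mature c subunit with different import sequences. Their differences were 0.92 ± 0.18 (adjusted p = 0.00364), 0.72 ± 0.16 (adjusted p = 0.00624) and 0.51 ± 0.18 (adjusted p = 0.0553). Of the catalytic head, Atp5b (subunit beta) rose by 0.47 ± 0.14 (adjusted p = 0.031), while Atp5a1 (subunit alpha) had 0.33 ± 0.21 (adjusted p = 0.278).

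Atp5pb, subunit b of the peripheral stalk, gave similar values in every group. Its arrays read 13.84 and 13.91 in UNSC, 13.88 and 13.90 in UNPD, 13.90 and 13.86 in UNTD, 13.96 and 13.84 in RAPD and 14.07 and 13.98 in RATD. The 5 groups overlapped except for RATD, which was highest, and the difference of UNPD from UNSC was 0.01 ± 0.14 (adjusted p = 0.957).

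Of the tissue isoforms, Cox6a2, the heart and skeletal muscle form of subunit VIa, was the only one of 6 to be called higher. It read 7.29 and 7.21 in UNSC, 8.97 and 8.45 in UNPD, 7.14 and 6.95 in UNTD, 6.73 and 7.70 in RAPD and 7.41 and 6.90 in RATD. UNPD lay above all other arrays, 2.76-fold over UNSC (1.46 ± 0.36, adjusted p = 0.0115), although the mean of its probe sets was not called (1.67, adjusted p = 0.143). Cox4i2, the lung form of subunit IV, spread from 3.49 to 5.96 within UNSC and had a difference of 1.45 ± 0.70 (adjusted p = 0.154). Cox7a1, a muscle form of subunit VIIa, had 0.74 ± 0.48 (adjusted p = 0.291).

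The size of this shift depended on how the arrays were put on 1 scale. The median of all genes was 0.20 on the deposited scale, 0.31 after quantile normalization and 0.60 at a common 75th percentile. The median of the 89 genes was 0.64, 0.31 and 1.04, so that it was level with that of all genes after quantile normalization, where 31 genes rose and 3 fell. At a common 75th percentile 78 rose and 2 fell, and over all genes the calls went from 1555 higher and 2221 lower to 2220 and 1890 after quantile normalization and to 4413 and 1644. When the fit held each array's 75th percentile as a covariate, limma called 0 of the 89 genes and 0 of all 14521. At an unadjusted p under 0.05 stood 2.25% of the 89 genes and 2.96% of all genes, and the medians were -0.04 and 0.01. The covariate was 8.28 and 8.35 on the UNPD arrays and 8.73 and 8.70 on the UNSC arrays. This fit could therefore hardly separate it from the group difference, and no conclusion is drawn from the lost calls. Without UNPD replicate 1, 8 of the 89 genes were called higher, and the share of all genes called higher fell to 1.29%. Without UNSC replicate 1 or 2 they were 15 or 16, against 3.1% or 2.08% of all genes. In the same comparison 5 of 6 late granulocyte and 2 of 6 erythroid markers were called higher. The part of these markers and of the array distributions in the differences was not tested.

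**Figure D2:**
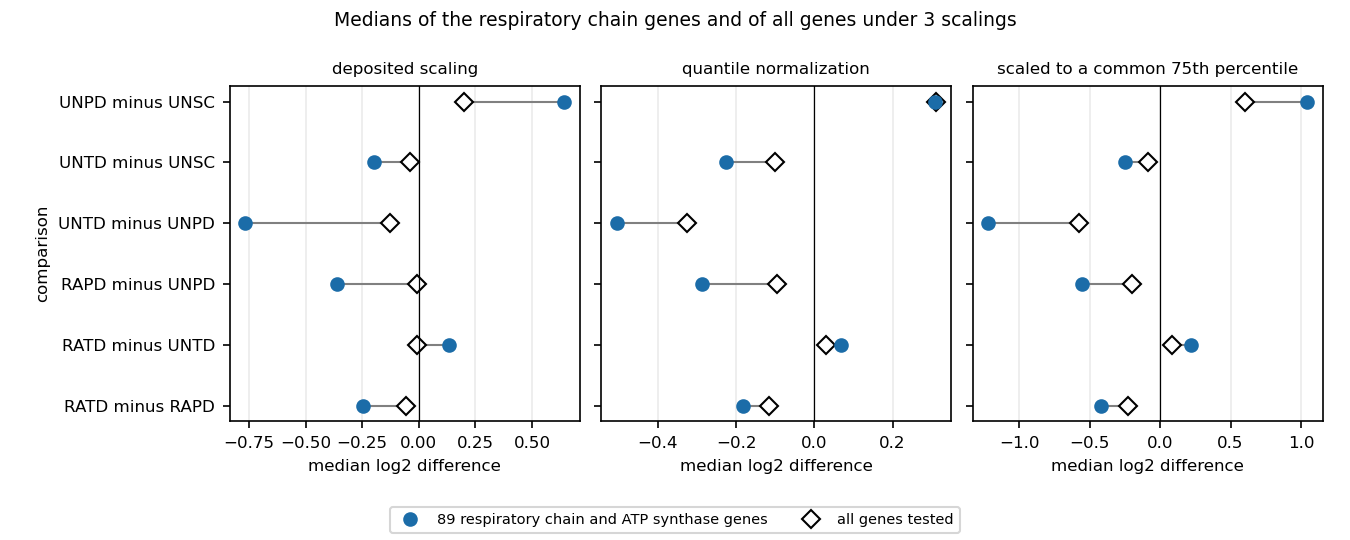
Median log2 difference of the 89 genes (circles) and of all genes tested (diamonds) in 6 comparisons under 3 scalings, with 1 panel per scaling. For UNPD minus UNSC the medians are 0.64 and 0.20 as deposited, both 0.31 after quantile normalization, and 1.04 and 0.60 at a common 75th percentile.

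Between UNTD and UNPD, the comparison of the TD with the PD subset, the genes were lower in UNTD. Of the 89, 69 were called lower (background 17.3%) and 2 higher (background 18.1%), with a median of -0.77 against -0.13 for all genes. The falls took in 30 of 35 complex I subunits, 5 of 8 assembly factors, 3 of 4 complex II, 7 of 9 complex III, 7 of 10 complex IV and 15 of 17 ATP synthase subunits, and 2 of 6 tissue isoforms. This comparison shares the UNPD arrays with the one above, so the 2 are not independent. After quantile normalization the median was -0.50 against -0.32 for all genes, with 61 lower (24% of all genes) and 3 higher (15.6%). At a common 75th percentile it was -1.22 against -0.58, with 79 lower (32.2% of all genes) and 2 higher (12.3%). With the covariate limma called 0 of the 89 and 0 of all genes, and 3.37% and 5.31% had an unadjusted p under 0.05. The covariate was 8.76 and 8.78 on the UNTD arrays, again above UNPD, so the fit could hardly separate it from this difference. Without UNPD replicate 1 there were 44 lower and 1 higher, against 8.66% and 11.9% of all genes. Of the monocyte and macrophage markers 6 of 10 were called higher in UNTD, and of the granulocyte precursor markers 4 of 7 were called lower, and their part was not tested.

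The largest falls were in Atp5md, 3.35-fold (-1.74 ± 0.18, adjusted p = 9.69e-05), and in Cox6a2, 3.17-fold (-1.67 ± 0.36, adjusted p = 0.00376). Atp5g1 fell 2.87-fold (-1.52 ± 0.18, adjusted p = 0.000177), with 13.66 and 13.62 in UNPD and 12.21 and 12.03 in UNTD. The other c ring genes fell by less, Atp5g2 by 0.85 ± 0.16 (adjusted p = 0.00147) and Atp5g3 by 0.53 ± 0.18 (adjusted p = 0.037). Ndufa12, an accessory subunit of complex I, read 14.15 and 13.96 in UNPD and 12.64 and 12.53 in UNTD, a 2.77-fold fall (-1.47 ± 0.16, adjusted p = 0.000137). UNTD lay below UNPD on both arrays for each of these 4 genes.

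Among the large or catalytic subunits, Ndufv1 fell by 0.75 ± 0.20 (adjusted p = 0.0115), Uqcrc1 by 0.86 ± 0.14 (adjusted p = 0.000898), Uqcrfs1 by 0.72 ± 0.17 (adjusted p = 0.00635) and Cyc1 by 1.08 ± 0.16 (adjusted p = 0.000432). All 5 subunits of the F1 head fell, among them Atp5a1 by 0.72 ± 0.21 (adjusted p = 0.019) and Atp5b by 0.93 ± 0.14 (adjusted p = 0.000602). In complex II, Sdhd fell by 1.04 ± 0.17 (adjusted p = 0.000864), Sdhc by 0.74 ± 0.17 (adjusted p = 0.00479) and Sdhb by 0.62 ± 0.18 (adjusted p = 0.0204), while Sdha had -0.35 ± 0.18 (adjusted p = 0.162). Of complex IV, Cox7a2 fell by 0.93 ± 0.16 (adjusted p = 0.00107) and Cox4i1 by 0.49 ± 0.16 (adjusted p = 0.0281). Ndufs1 and Cox7c, the members that were low in UNPD, were the 2 that rose, by 1.35 ± 0.29 (adjusted p = 0.00362) and 1.65 ± 0.29 (adjusted p = 0.00109). Ndufs1 was not called without UNPD replicate 1 (0.97, adjusted p = 0.0556).

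**Figure D3:**
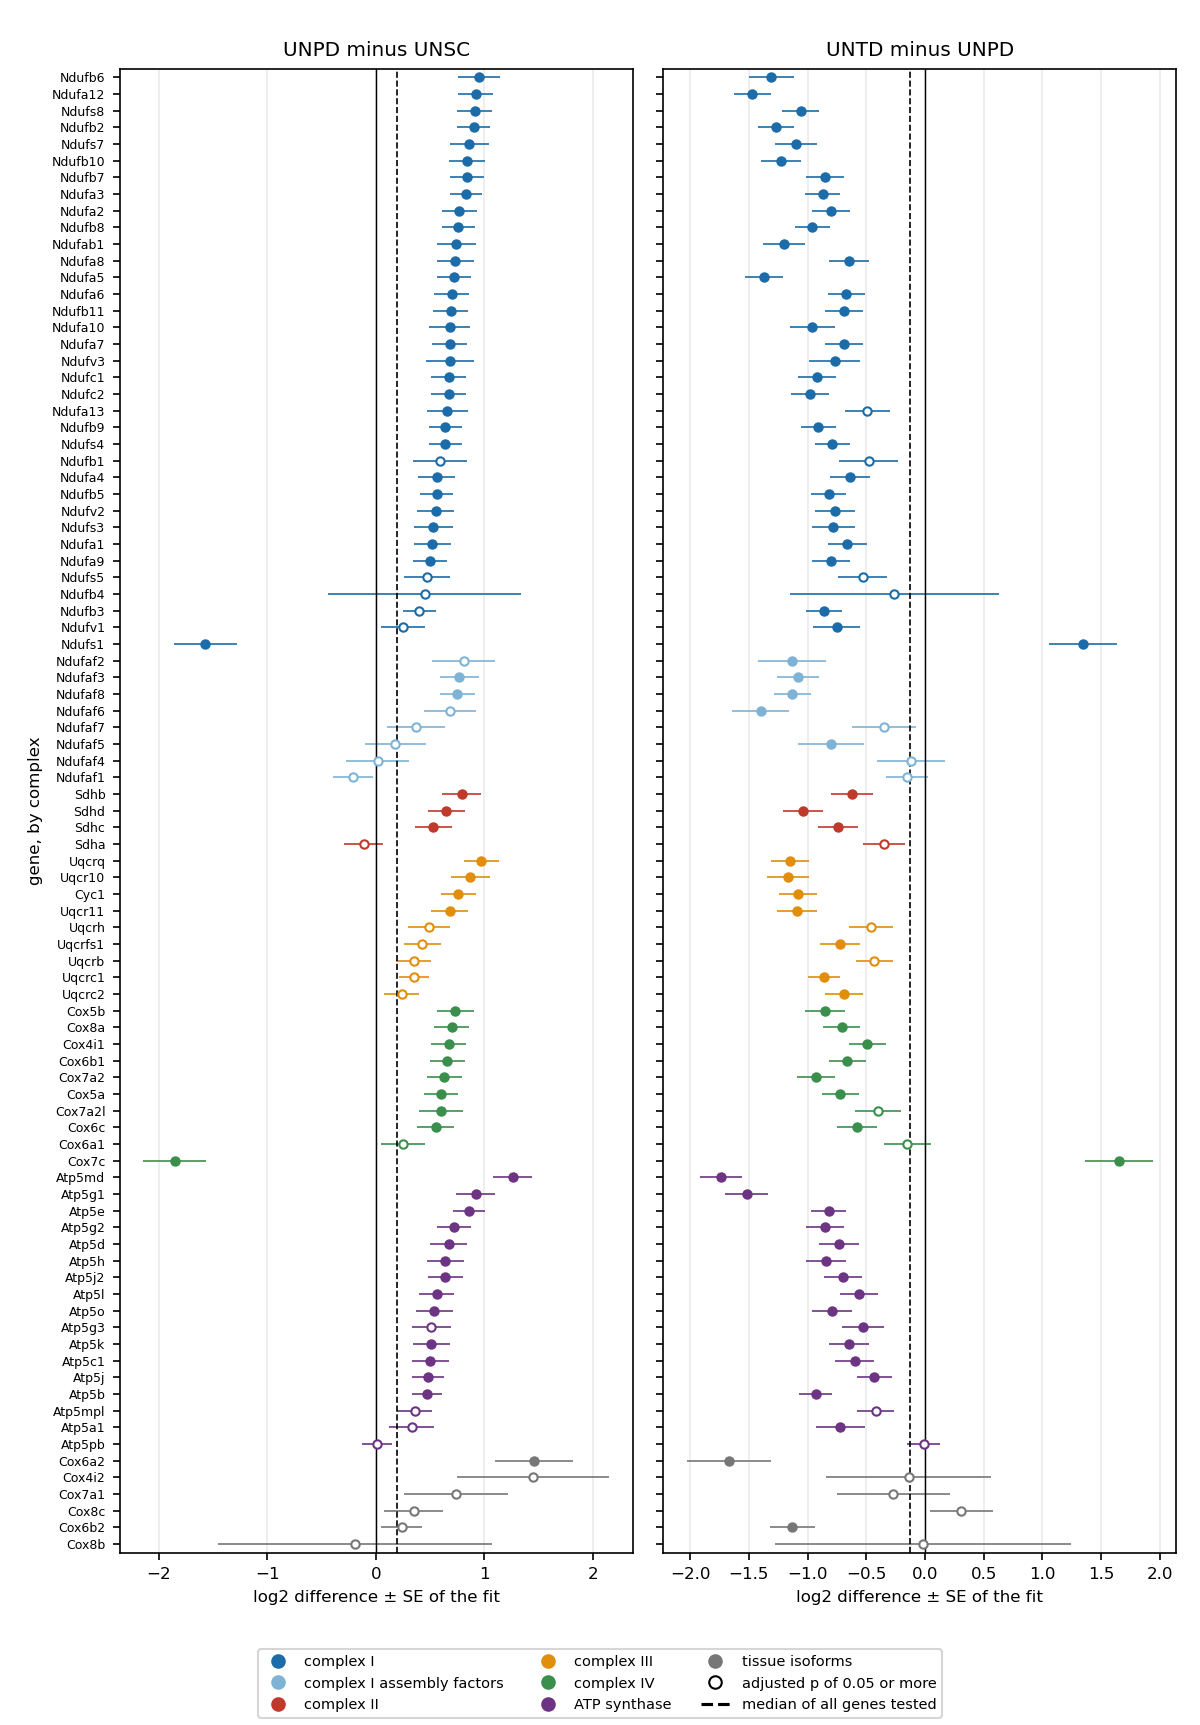
Log2 difference of each of the 89 genes with the SE of the fit, UNPD minus UNSC on the left and UNTD minus UNPD on the right, ordered by complex (filled points called, open points not called, dashed line the median of all genes tested). Most points lie right of the dashed line at 0.20 on the left and left of it at -0.13 on the right. Ndufs1 and Cox7c lie on the far side in both panels.

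UNTD against UNSC completes the comparison of the untreated subsets. Here 6 of 10 monocyte and macrophage and 5 of 6 late granulocyte markers were called higher, and 4 of 7 granulocyte precursor markers lower. Their part in the differences below was not tested. None of the 89 genes was called higher (background 4.97%) and 2 were called lower (background 3.21%), with a median of -0.20 against -0.04 for all genes. At an unadjusted p under 0.05 stood 20 of the 89 (22.5%), close to the 21.9% of all genes. The 2 were Cox6b2, the testis form of subunit VIb, and Ndufa5. Cox6b2 read 11.53 and 11.48 in UNSC and 10.53 and 10.71 in UNTD, a 1.85-fold fall (-0.89 ± 0.19, adjusted p = 0.0152). Ndufa5, an accessory subunit of complex I, read 11.77 on both UNSC arrays and 11.10 and 11.12 in UNTD, a 1.58-fold fall (-0.66 ± 0.16, adjusted p = 0.0286). UNTD was below UNSC on both arrays for both genes. Uqcrc1 came close, with -0.51 ± 0.14 (adjusted p = 0.0502). The count was 0 without either array of UNSC or of UNTD, where 0.551% to 1.06% of all genes were called lower. It was 6 without any 1 array of RAPD or RATD (4.42% to 5.08% of all genes) and 10 after quantile normalization (4.41%).

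RAPD against UNPD shows how the PD subset differed after ATRA. Of the 89 genes, 10 were called lower (background 3.2%) and none higher (background 4.88%), with a median of -0.36 against -0.01 for all genes, and 44 (49.4%) had an unadjusted p under 0.05, against 26.6% of all genes. The 10 were 4 complex I subunits (Ndufa5, Ndufa10, Ndufa12 and Ndufb2), the assembly factor Ndufaf6, Sdhb of complex II, Uqcr10 and Uqcrq of complex III, Atp5g1 of the c ring, and the muscle isoform Cox6a2. None of the 10 complex IV subunits was called, and their differences ran from -0.29 to -0.06 with a median of -0.18. By mean, RAPD lay below UNPD for 83 of the 89 genes, above UNTD for 78 and between the 2 for 73. It lay above UNPD for 6.74% of the 89 genes and for 49.4% of all genes.

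Ndufa5 read 12.60 and 12.37 in UNPD and 11.40 and 11.63 in RAPD, and fell 1.96-fold (-0.97 ± 0.16, adjusted p = 0.00999). Uqcr10 read 13.09 and 12.93 in UNPD and 11.95 and 12.11 in RAPD, a 1.97-fold fall (-0.98 ± 0.18, adjusted p = 0.0141). Ndufaf6, which acts in the assembly of complex I, read 9.94 and 9.61 in UNPD and 8.48 and 8.22 in RAPD, a 2.68-fold fall (-1.42 ± 0.24, adjusted p = 0.0096). In these 3 genes both RAPD arrays lay below both UNPD arrays. Cox6a2 fell 2.82-fold (-1.50 ± 0.36, adjusted p = 0.0323), and Sdhb 1.62-fold (-0.70 ± 0.18, adjusted p = 0.042). Uqcrq and Atp5g1 fell by 0.63 ± 0.16 (adjusted p = 0.0342) and 0.70 ± 0.18 (adjusted p = 0.0373).

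Of the genes with large differences between untreated subsets, Atp5md had -0.32 ± 0.18 (adjusted p = 0.285), Cox7c -0.20 ± 0.29 (adjusted p = 0.713) and Ndufs1 0.32 ± 0.29 (adjusted p = 0.537) with ATRA in the PD subset. The widest difference was in Ndufb4, an accessory subunit of complex I whose probe set read 5.29 and 5.49 in UNPD and 3.74 and 0.91 in RAPD. The RAPD arrays stood below the 40th percentile of their own array and apart from each other, and the difference of -3.06 ± 0.89 was not called (adjusted p = 0.0561).

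The count of 10 moved with single arrays, and so did the calls over all genes, while the median of the 89 stayed between -0.48 and -0.26. Without UNPD replicate 1 limma called 0 lower (0.131% of all genes, with 22 of the 89 at an unadjusted p under 0.05). Without UNPD replicate 2 or RAPD replicate 1 it called 2 (0.399% or 0.317%), and without RAPD replicate 2 it called 31 (6.37%). Arrays outside the comparison moved it too, to 3 without either UNSC array (1.08%), 4 without either UNTD array (1.36% or 1.27%) and 22 without either RATD array (6.62% or 6.72%). At a common 75th percentile 30 were lower (8.29% of all genes) and after quantile normalization 6 (2.67%). The covariate left 0 of the 89 and 0.0207% of all genes called lower, with 7.87% and 9.6% at an unadjusted p under 0.05. It was lower on both UNPD arrays than on both RAPD arrays, so it was partly bound up with the groups compared. Late granulocyte markers rose in the same comparison, 3 of 6 called, and their part in these falls was not tested.

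In the TD subset no member was called with ATRA. Late granulocyte markers were called higher there for 2 of 6, and monocyte and macrophage markers lower for 1 of 10, and their part was not tested. RATD against UNTD gave 0 higher (background 0.193%) and 0 lower (background 0.0964%) by limma, with 6 of the 89 (6.74%) at an unadjusted p under 0.05, against 10.7% of all genes. The median was 0.13 against -0.01, and fell to 0.03 without UNTD replicate 2 and to 0.05 without RATD replicate 1. RATD was above UNTD by mean for 70 of the 89 genes (78.7%, against 49.3% of all genes), among them all 9 of complex III and 16 of 17 of ATP synthase. The number of the 89 above UNTD fell to 54 without UNTD replicate 2 and to 52 without RATD replicate 1. Atp5md had the largest positive difference, 0.67 ± 0.18 (1.59-fold, adjusted p = 0.173), from 10.82 and 11.34 in UNTD to 11.71 and 11.79 in RATD, with no overlap. Cox6b2 had 0.52 ± 0.19 (adjusted p = 0.361) and Cox7c -0.45 ± 0.29 (adjusted p = 0.65).

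The difference between the ATRA effects, that in TD minus that in PD, was tested as an interaction. It was positive for 85 of the 89 genes (95.5%, against 51.1% of all genes), with a median of 0.48 against 0.02 for all genes. None of the 89 was called higher (background 0.062%) or lower (background 0.179%), with 36 (40.4%) at an unadjusted p under 0.05, against 15% of all genes. The smallest adjusted p among the genes named here was that of Ndufa5, with 1.14 ± 0.23 (adjusted p = 0.0803), followed by Ndufa12 with 0.99 ± 0.23 (adjusted p = 0.105). Without RAPD replicate 2, 10 of the 89 were called higher, while the calls over all genes went from 9 higher and 26 lower to 275 and 1100. Without RATD replicate 2 it was 3 of the 89, with 88 higher and 97 lower over all genes.

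**Figure D4:**
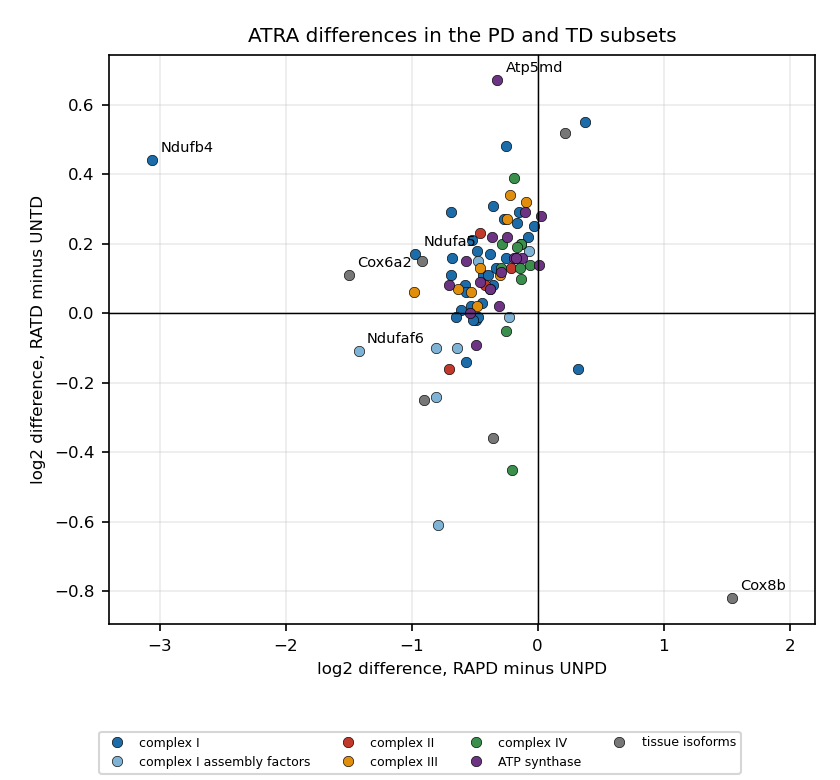
Log2 difference with ATRA of each of the 89 genes, in the PD subset (RAPD minus UNPD, horizontal axis) and in the TD subset (RATD minus UNTD, vertical axis), coloured by complex. Most points lie left of 0 on the horizontal axis (median -0.36) and above 0 on the vertical axis (median 0.13), and Ndufb4 and Cox8b, which are dim genes, lie far out.

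RATD against RAPD compared the subsets after treatment. In it 6 of 10 monocyte and macrophage and 1 of 6 late granulocyte markers were called higher, and 4 of 7 granulocyte precursor markers lower. Their part in the differences below was not tested. Of the 89 genes, 5 were called lower in RATD (background 2.13%) and 1 higher (background 2.67%), with a median of -0.25 against -0.06 for all genes. The 5 were Ndufaf3, an assembly factor of complex I (-0.84 ± 0.18, adjusted p = 0.0311), Cox6b2 (-0.83 ± 0.19, adjusted p = 0.0358), Atp5md (-0.76 ± 0.18, adjusted p = 0.04), Atp5g1 (-0.73 ± 0.18, adjusted p = 0.0422) and Ndufb2 (-0.61 ± 0.15, adjusted p = 0.0467). Atp5md read 12.53 and 12.48 in RAPD and 11.71 and 11.79 in RATD, with no overlap. Cox7c was the gene that rose, 2.65-fold (1.41 ± 0.29, adjusted p = 0.0247), and its RATD arrays lay above both RAPD arrays. Without RAPD replicate 1 the count was 24 lower and 3 higher, against 5.56% and 11.4% of all genes. It was 0 lower without either UNSC array (0.489% or 0.503% of all genes) or RAPD replicate 2 (0.103%) and 1 without either UNTD array (0.771% or 0.737%). It was 2 without either UNPD array (0.985% or 1.05%) or RATD replicate 1 (2%), and 3 without RATD replicate 2 (3.08%). The rise of Cox7c was not called without either UNSC array, either UNTD array, RAPD replicate 2 or RATD replicate 2.

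Other genes of the pathway were grouped by function, and their calls read against the same backgrounds. From UNSC to UNPD these were 10.7% of all genes higher and 15.3% lower, and from UNPD to UNTD 18.1% higher and 17.3% lower. Of 39 assembly factors outside the Nduf prefix, 12 rose (30.8%) and 3 fell (7.69%) from UNSC to UNPD (median 0.37). From UNPD to UNTD 1 rose (2.56%) and 22 fell (56.4%), with a median of -0.63. Coa3 and Coa6, which assemble complex IV, rose from UNSC to UNPD by 0.96 ± 0.15 (adjusted p = 0.00166) and 0.87 ± 0.15 (adjusted p = 0.00229). Cox17, which brings copper to it, rose in that comparison by 0.82 ± 0.16 (adjusted p = 0.00343). Lrpprc, which stabilises mitochondrial messenger RNAs, fell from UNSC to UNPD by 1.61 ± 0.31 (adjusted p = 0.00373). With ATRA in the PD subset 7 of these 39 fell (17.9%, against 3.2% of all genes) and none rose (median -0.34). Among them Coa6 fell by 0.81 ± 0.15 (adjusted p = 0.0141) and Cox16, an assembly factor of complex IV, by 0.82 ± 0.18 (adjusted p = 0.0257).

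Of 18 electron carrier and coenzyme Q genes, 1 rose (5.56%) and 3 fell (16.7%) from UNSC to UNPD, near the shares of all genes. The median was 0.40, with 14 of 18 differences positive (77.8%, against 59.6% of all genes). From UNPD to UNTD 1 rose and 10 fell (median -0.60). Cycs, cytochrome c, rose from UNSC to UNPD by 0.55 ± 0.16 (adjusted p = 0.0238). Etfdh, which passes electrons from fatty acid oxidation to ubiquinone, fell in that comparison by 0.94 ± 0.20 (adjusted p = 0.00534). Of 17 genes of the citric acid cycle and pyruvate dehydrogenase, 4 rose and 4 fell from UNSC to UNPD (23.5% each, median 0.18), against 10.7% and 15.3% of all genes. Mdh2, malate dehydrogenase, rose by 0.80 ± 0.17 (adjusted p = 0.00584), while Dld, the E3 subunit shared by the 2-oxoacid dehydrogenases, fell by 1.57 ± 0.24 (adjusted p = 0.00174) and Sucla2, of succinyl-CoA ligase, by 1.21 ± 0.24 (adjusted p = 0.0042). The adenine nucleotide and phosphate carriers and pores had 1 of 6 higher (16.7%, near the 10.7% of all genes) and none lower in UNPD than in UNSC. Of 9 genes against superoxide and peroxide 4 rose (44.4%) and none fell in that comparison. Among them Sod2, the mitochondrial superoxide dismutase, rose by 0.94 ± 0.19 (adjusted p = 0.00401) and Gpx4, which reduces lipid peroxides, by 0.75 ± 0.17 (adjusted p = 0.00788).

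In the list of regulators more genes fell than rose in UNPD, as was also the case over all genes (15.3% lower, 10.7% higher). Of 21 genes for mitochondrial DNA upkeep and biogenesis, 1 rose (4.76%) and 7 fell (33.3%) from UNSC to UNPD. From UNPD to UNTD 6 rose (28.6%) and 4 fell (19%), against 18.1% and 17.3% of all genes. Gabpa and Gabpb2, subunits of the ETS factor GABP, fell from UNSC to UNPD by 1.66 ± 0.27 (adjusted p = 0.00204) and 1.56 ± 0.25 (adjusted p = 0.00183), and Gabpb1 by 0.86 ± 0.23 (adjusted p = 0.0184). In the same comparison Esrra, the estrogen-related receptor alpha, rose by 1.03 ± 0.23 (adjusted p = 0.007), and Tfam, which packages mitochondrial DNA, fell by 0.57 ± 0.18 (adjusted p = 0.038). Of the subunits encoded in mitochondrial DNA only ND5 was measured. It differed by -0.17 from UNSC to UNPD and rose by 0.86 ± 0.28 from UNPD to UNTD (adjusted p = 0.0295).

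The difference of UNPD from UNSC was also set out by promoter motif. The 17 genes with the NRF1 motif had a median of 0.51 and the 56 without it 0.67. For the ETS motif the medians were 0.66 with (19 genes) and 0.63 without, and for YY1 0.66 with (10 genes) and 0.64 without. These are descriptions of the windows described above, and no test was made of them.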

How the data were processed

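Total RNA extracted with Trizol was turned into biotin-labelled cRNA from 6 µg and hybridised to 1-colour arrays, 2 per group, per the labels' protocols. The deposited values are log2 signals of 45037 probe sets, made with MAS5 (version not given in the sources used here), per the submitters' processing notes. No detection calls were used. The platform annotation gave 1 symbol to 34945 probe sets, several to 932 and none to 9160. Each gene was represented by its probe set with the highest mean, and a gene was kept if this probe set exceeded the 40th percentile of signal on 2 or more arrays (14521 genes). The symbols are those of the annotation, and the RefSeq tables of GRCm38.p6 gave gene spans and promoters.

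All 10 arrays entered 1 fit with 5 group means in limma 3.58.1 (lmFit, eBayes with an intensity trend, R 4.3.3), on the deposited scaling with no pseudocount, with 5 residual and 6.57 prior degrees of freedom. There were 6 group comparisons and 1 interaction, two-sided, with Benjamini-Hochberg adjustment over all genes in each. The fit was tested on simulated data. Named members are the 4 called with the largest differences in each direction per comparison whose arrays do not overlap, the complex II subunits, a set of well-known subunits of each complex, and members called against the majority, and others (among them Ndufb4, Ndufs7, Ndufs8, Atp5pb and Uqcr11) were named after their values were seen. From each pathway list, up to 3 genes of smallest p were named by rule, and Lrpprc, Cycs, Gabpb1, Esrra and Tfam were added after their values were seen. The members and lists were chosen with earlier results of these data known.

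Alternatives were quantile normalization, a common 75th percentile, no filter or a 60th percentile filter, the mean over probe sets, no trend, fitting only the groups compared, the 75th percentile as a covariate, a replicate block, and leaving out each array.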

Additional observations from a re-analysis of the deposited data

How the results depend on the processing

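Of 4914 values of single members under other settings, 4290 kept their direction and side of the threshold, 314 lost and 116 gained a call. A further 168 changed direction with no call in either fit, and 26 changed direction with a call in at least 1. Quantile normalization gave 31 members higher for UNPD minus UNSC (median 0.31), against 15.3% of all genes, and a median of -0.50 for UNTD minus UNPD. It gave 10 lower for UNTD minus UNSC (4.41% of all genes) and 6 lower for RAPD minus UNPD (2.67%). A common 75th percentile gave medians of 1.04 for UNPD minus UNSC, -1.22 for UNTD minus UNPD and -0.55 for RAPD minus UNPD. With it 30 members were lower for RAPD minus UNPD (8.29% of all genes) and 2 higher for RATD minus RAPD (3.05%). The interaction had 1 higher (0.289%) and a median of 0.76. As a covariate, the 75th percentile gave 0 called members for UNPD minus UNSC, UNTD minus UNPD, RAPD minus UNPD and RATD minus RAPD. Of all genes at most 0.0826% were called in either direction in these. The medians were -0.04, -0.09, -0.08 and -0.01, with -0.01 for RATD minus UNTD and 0.06 for the interaction. This covariate was lowest on both UNPD arrays, so the fit could hardly separate it from that group. Without a filter RATD minus RAPD had 3 lower (1.23% of all genes), and with the 60th percentile filter UNTD minus UNSC had 4 lower (5.22%). With the mean over probe sets RAPD minus UNPD had 6 lower (2.69% of all genes) and RATD minus RAPD 0 higher (1.75%). Without the intensity trend UNPD minus UNSC had 27 higher (4.95% of all genes). There UNTD minus UNSC, RAPD minus UNPD and RATD minus RAPD had 0 in every direction called before, against at most 1.09% of all genes. Fitted on the compared groups only, UNTD minus UNSC had 19 lower (11.9% of all genes) and RAPD minus UNPD 4 lower (2.32%). RATD minus RAPD had 0 in both directions there, against 0.372% of all genes higher and 0.0275% lower. The cause was not tested for any of these.

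Leaving out 1 array in turn, UNPD minus UNSC had 8 to 65 higher (median 0.54 to 0.73), UNTD minus UNSC 0 to 6 lower, UNTD minus UNPD 44 to 72 lower and 1 to 2 higher, RAPD minus UNPD 0 to 31 lower, RATD minus UNTD 0 to 1 in each direction, RATD minus RAPD 0 to 24 lower and 0 to 3 higher (median -0.43 to -0.15), and the interaction 0 to 10 higher. Where a group was left with 1 array, that array was taken to vary like the other groups. The share of all genes called also changed with the array left out, as given for several of these fits in the comparisons above. The ranges are therefore not particular to the members.

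With the replicate number as a block, UNTD minus UNSC had 1 lower (2.62% of all genes). RAPD minus UNPD had 5 lower (1.94%) and RATD minus RAPD 0 lower (0.971%). Deviations of same-numbered arrays correlated between -0.501 and 0.0995 over the brighter of the genes tested. With 2 arrays a group this cannot settle whether same-numbered arrays have a common origin. The labels link them by number only, and they were not taken as pairs.

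Only changes of direction with a call in at least 1 fit are listed here. They were those of Ndufab1 on the mean over its probe sets (-0.33 for UNPD minus UNSC and 0.24 for UNTD minus UNPD) and, with the covariate fit of the 75th percentile, of the following. For UNPD minus UNSC they were Atp5k (-0.16), Cox4i1 (-0.07), Cox5a (-0.10), Cox5b (-0.14), Cox6a2 (-0.61), Cox7a2 (-0.15), Cox7a2l (-0.66), Ndufa4 (-0.35), Ndufaf3 (-0.07), Ndufs1 (0.50), Sdhc (-0.13) and Sdhd (-0.24). For UNTD minus UNPD they were Atp5g3 (0.38), Atp5k (0.10), Cox4i1 (0.35), Cox5a (0.07), Cox5b (0.13), Cox6a2 (0.67), Cox8a (0.02), Ndufa4 (0.39), Ndufs1 (-0.99), Ndufv1 (0.39), Sdhb (0.14) and Sdhc (0.00). The covariate was lowest on both UNPD arrays (8.28 and 8.35) and so nearly followed the groups compared. The values of the covariate fit are therefore not read as differences of these genes, and none was called in it.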

Other observations

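Members represented by several probe sets allowed a second reading of the same RNA. Above the 40th percentile on all arrays stood 69 other probe sets of 47 members. For UNPD minus UNSC 61 of the 69 had the sign of the probe set used, with a median of 0.63 against 0.64, and for UNTD minus UNPD 62 did, with -0.78 against -0.79. The 8 of opposite sign for UNPD minus UNSC included dimmer probe sets of Ndufaf4 (-1.45, against 0.02 for the one used), Atp5c1 (-1.08 against 0.50), Ndufb8 (-0.96 against 0.76) and Ndufs4 (-0.71 against 0.64), chosen here after their values were seen. Atp5c1 encodes the rotor shaft of ATP synthase, and its dimmer probe set rose by 2.19 in means from UNPD to UNTD.

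Most members are short and bright genes. Their median genomic span was 7.18 kb against 21.3 kb for all genes tested, and 13 of 89, among them Ndufaf2 (106 kb) and Ndufs4, lay above the latter. Their median log2 signal was 12.79 against 8.48, and 7 of 89, among them Cox8b, Ndufb4 and Cox7c, lay below the latter. Other genes with spans up to 8.66 kb had medians of 0.43 for UNPD minus UNSC and -0.42 for UNTD minus UNPD. Of the members, 66 had a mean log2 signal of at least 12, with a median of 0.65 for UNPD minus UNSC and -0.78 for UNTD minus UNPD. The 1142 other genes at that level had medians of 0.44 and -0.37. Of these, 39.8% were called higher in UNPD than in UNSC and 43.6% lower in UNTD than in UNPD, against 54 and 59 of the 66 members. Ndufs1, one of the members that fell in UNPD, spans 33.2 kb, and Cox7c, the other, 2 kb.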
